A study of Mus musculus with 20 samples.

Results

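Mitochondrial ribosomal protein genes were taken as the genes whose symbol starts with Mrpl or Mrps followed by a number. The table of microglial gene expression held 77 such genes among 24062 genes in all, on 17 chromosomes. By their known place in the ribosome, 49 belonged to the large subunit and 26 to the small subunit, and Mrpl55 and Mrps36 were not assigned to either. Some symbols do not name the subunit, since Mrps18a and Mrps30 belong to the large subunit.

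The mitochondrial ribosome translates the few proteins that mitochondrial DNA encodes, all of them parts of the oxidative phosphorylation complexes. Its RNAs come from mitochondrial DNA, whereas each of its proteins is encoded in the nucleus, made by cytoplasmic ribosomes and imported. Many of these proteins have a bacterial homologue and others are found only in mitochondria.

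RNA was sequenced from microglia of male B6D2F1/J mice at 7 and 10 months of age. The mThy1-α-synuclein mice (mThy1-Asyn, labelled HEM) carry full-length human wild-type α-synuclein on the X chromosome under the murine Thy-1 promoter, which is active mainly in neurons, and the controls were wild-type (WT) littermates without the transgene. The younger age had 6 transgenic and 4 control animals and the older age 5 of each, with 1 whole brain per sample. The cells were selected with magnetic beads against IBA1 according to the labels and against CD11b according to the study's methods.

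Reads counted on genes ranged from 33404096 to 77806399 per mouse. The 15 microglial markers were abundant in every group, with the lowest gene mean at 13802 normalized counts, and no marker of another cell type was at 0 in every mouse of a group. In a bulk sample, fewer cells of a type and less RNA per cell cannot be told apart. At 7 months the summed levels of 4 marker lists lay without overlap, lower in mThy1-α-synuclein mice. Neuron markers summed to 2547 to 2969 normalized counts in the controls and 1730 to 2133 in the transgenic mice (13 of 15 genes lower, 6 past the threshold). The sums were 12848 to 18336 and 7878 to 10264 for oligodendrocyte markers (10 of 10 tested genes lower, 3 past the threshold), 5716 to 6929 and 3540 to 5399 for endothelial markers (10 of 11 lower, 2 past the threshold) and 2300 to 3039 and 1036 to 1597 for lymphocyte markers (8 of 8 tested genes lower, 2 past the threshold). Astrocyte markers were lower for 11 of 13 genes, with a median log2 difference of -1.24, 5 past the threshold lower and 1 higher, while their sums, which the most abundant genes set, overlapped at 9701 to 12839 and 9985 to 12665. Monocyte and neutrophil markers were lower for 10 of 10 tested genes and border macrophage markers for 4 of 8, none past the threshold and with overlapping sums. At 10 months the sums without overlap were 26412 to 36567 and 19275 to 24674 for border macrophages (8 of 8 genes lower, 5 past the threshold) and 1524 to 2997 and 919 to 1272 for lymphocytes (7 of 8 tested genes lower, 4 past the threshold). Monocyte and neutrophil markers were lower for 10 of 10 tested genes, 2 past the threshold, with overlapping sums of 154543 to 374893 and 72235 to 188513. Astrocyte markers at 10 months were higher in mThy1-α-synuclein mice for 12 of 13 genes, 1 past the threshold, with a median log2 difference of 0.31. Microglial markers were higher for 10 of 15 genes at 7 months (1 past the threshold, higher). At 10 months they were higher for 11 of 15 (4 past the threshold, all higher). The part of cell composition in the results that follow was not tested.

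Promoter sequences are shown for the genes with a genotype difference past the threshold and for Mrpl33, which was chosen after its values were seen because it was lower in mThy1-α-synuclein mice at both ages. Each is the RefSeq window (GRCm38.p6) from 250 bases before to 50 bases after the annotated start, plus strand and 5′ to 3′. Capitals mark matches to the searched motifs.
Mrpl23: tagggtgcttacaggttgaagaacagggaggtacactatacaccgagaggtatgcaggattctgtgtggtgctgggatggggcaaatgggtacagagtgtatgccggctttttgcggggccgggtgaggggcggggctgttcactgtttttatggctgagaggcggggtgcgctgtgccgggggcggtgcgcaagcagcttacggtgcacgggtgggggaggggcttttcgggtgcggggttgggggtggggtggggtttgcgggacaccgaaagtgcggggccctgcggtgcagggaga
Mrpl30: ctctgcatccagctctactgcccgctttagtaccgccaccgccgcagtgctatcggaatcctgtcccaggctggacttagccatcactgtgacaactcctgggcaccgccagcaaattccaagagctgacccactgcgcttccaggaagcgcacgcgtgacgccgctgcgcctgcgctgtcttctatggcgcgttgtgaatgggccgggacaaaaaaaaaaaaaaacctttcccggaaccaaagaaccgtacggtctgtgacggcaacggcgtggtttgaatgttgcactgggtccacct
Mrpl36: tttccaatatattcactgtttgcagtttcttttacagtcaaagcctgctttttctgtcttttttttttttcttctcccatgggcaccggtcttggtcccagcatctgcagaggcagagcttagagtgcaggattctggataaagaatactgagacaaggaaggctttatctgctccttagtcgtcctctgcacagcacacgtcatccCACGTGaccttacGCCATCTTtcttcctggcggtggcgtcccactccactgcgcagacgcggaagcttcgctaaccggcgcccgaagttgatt
Mrpl33: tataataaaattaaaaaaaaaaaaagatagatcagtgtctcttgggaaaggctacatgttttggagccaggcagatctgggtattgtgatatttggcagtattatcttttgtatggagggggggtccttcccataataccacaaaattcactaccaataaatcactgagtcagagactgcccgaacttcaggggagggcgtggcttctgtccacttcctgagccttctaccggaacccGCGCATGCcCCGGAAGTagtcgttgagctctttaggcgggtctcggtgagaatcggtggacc

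The windows lie at chr7:142532782-142533081, chr1:37890227-37890526, chr13:73330759-73331058 and chr5:31613701-31614000 in the same order. The motifs searched on both strands were CCGGAAGT (ETS factors such as GABPA), GCATGCGC (NRF1), AAGATGGC (YY1) and CACGTG (E-box). GABPA and NRF1 are known regulators of nuclear genes for mitochondrial proteins. Of the 77 genes, 68 had a window and these gave 74 windows. The ETS motif was present in 16.2% of the 74 windows and in 3.89% of all 32851 windows of the same length. The NRF1 motif was present in 10.8% and 2.71%, the YY1 motif in 16.2% and 2.75%, and the E-box in 9.46% and 7.15%. The E-box windows came from 5 of the 68 genes, since 3 of them are overlapping windows of Mrpl2. The Mrpl23 and Mrpl30 windows held none of these letters, the Mrpl36 window held the E-box and the YY1 motif, and the Mrpl33 window held the ETS and NRF1 motifs.

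All 77 genes were expressed in every mouse. The lowest single value was 145 normalized counts, so every gene passed the filter on low values in each comparison. The fewest reads behind any value of these genes were 131. Per kb of annotated exon, the mean level over 20 mice ranged from 64.9 to 1841 normalized counts with a median of 290. The median was 334 for the large subunit and 222 for the small subunit. Mrps21 (1841 per kb), Mrps33 (1353), Mrpl52 (1218) and Mrpl18 (928) were highest, and Mrps10 (64.9), Mrps35 (82.8), Mrps26 (87.4) and Mrps25 (103) were lowest. Exon length here is the union over all annotated transcripts, so a gene with long rarely used exons has a lower value per kb. Exon bases are shared with another gene of the table by 23 of the 77, and 18 have a pseudogene copy (at least 95% identity over 200 bases), so their reads may be shared.

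**Figure D1:**
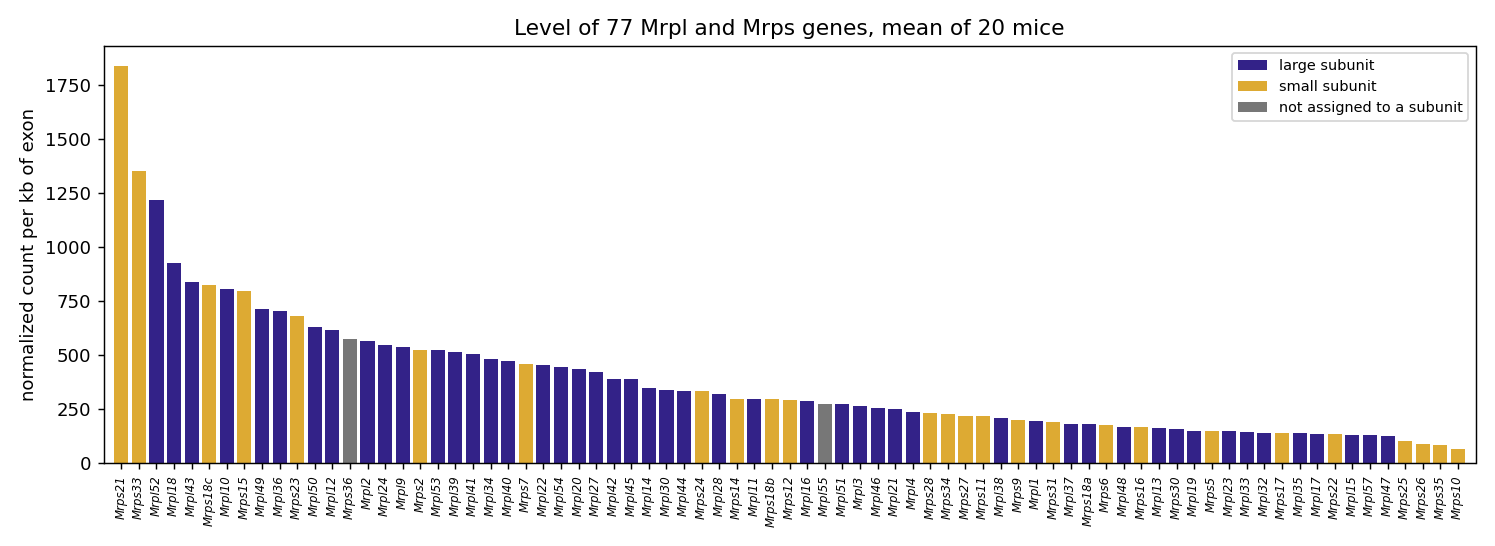
Bars give the mean normalized count per kb of exon over 20 mice for each of the 77 genes, ordered by level and coloured by subunit. Levels run from 1841 for Mrps21 to 64.9 for Mrps10, both of the small subunit, and genes of both subunits lie between them.

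At 7 months the question was which of these genes differed between genotypes. Mrpl23 and Mrpl30, both of the large subunit, were lower in mThy1-α-synuclein mice, and no gene of the small subunit passed the threshold of an adjusted p of 0.05 (limma on log2(value + 1), Benjamini-Hochberg over all tested genes). These 2 of 77 genes stand beside 4.93% of all 13887 genes tested. Of the 77 genes, 52 were lower and 25 higher, with a median log2 difference of -0.06 against 0.00 over all genes. At an unadjusted p under 0.05 there were 11 of the 77, with 21.3% of all genes. Of the 11, 9 were lower, beside 1477 of 2962 such genes over all genes. Those 9 of the 77 stand beside 10.6% of all tested genes.

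Mrpl23 encodes a protein at the exit of the tunnel through which the new peptide leaves the large subunit. Its normalized counts in the 4 wild-type mice at 7 months were 931, 802, 966 and 795, and in the 6 mThy1-α-synuclein mice they ranged from 607 to 692 with a median of 653. The groups did not overlap. The log2 difference was -0.41 ± 0.10 (SE), with a 95% interval from -0.61 to -0.21 and an adjusted p of 0.0207 in limma. The gene lies at chr7:142532686-142540747 on the plus strand (mm10) and has a pseudogene copy, Mrpl23-ps1, whose reads may not be told apart from its own.

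Mrpl30 encodes the homologue of bacterial L30. In wild-type mice at 7 months its normalized counts were 1293, 1259, 1273 and 1244, and in mThy1-α-synuclein mice they ranged from 897 to 1094 with a median of 981. These groups did not overlap either, and the wild-type values lay within a narrow band. It differed by a log2 value of -0.35 ± 0.08 (SE), with an interval from -0.52 to -0.17 and an adjusted p of 0.0249 in limma. The gene lies at chr1:37890477-37898535 and shares no exon bases with another gene of the table.

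Groups without overlap were found for 3 of the 77 genes at 7 months, with 7.53% of all genes. The third was Mrpl39, a mitochondria-specific protein of the large subunit, named here because the count is small. It was higher in mThy1-α-synuclein mice, at 1356 ± 90.2 (SD, n = 6) against 1211 ± 28.3 (SD, n = 4) normalized counts. Its log2 difference of 0.16 did not pass the threshold (adjusted p 0.248 in limma).

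The largest fitted fall at 7 months was that of Mrpl48, a protein of the central protuberance of the large subunit. Wild-type mice had 1763, 1659, 1738 and 1523 normalized counts. The mThy1-α-synuclein mice had 662, 714, 773, 1312, 1230 and 1540, so 3 mice lay below 800 and 1 lay within the wild-type range. The log2 difference was -0.76 ± 0.24 (SE), and its adjusted p was 0.106 in limma. Mrpl48 shares 708 exon bases with the antisense gene Rab6a and has the copy Mrpl48-ps, and the strand setting of the counting was not stated.

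Mrpl52, a mitochondria-specific protein of the large subunit, had 1469, 1566, 1989 and 1329 normalized counts in wild-type mice at 7 months. In mThy1-α-synuclein mice it ranged from 1059 to 1404 with a median of 1197, and the groups overlapped by 1 mouse of each. This gave a log2 difference of -0.39 ± 0.11 (SE, adjusted p 0.0536 in limma). Mrpl34, the homologue of bacterial L34, was at 334 ± 31.7 (SD, n = 4) and 261 ± 68.8 (SD, n = 6), with a log2 difference of -0.39 and an adjusted p of 0.238 in limma.

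On the other side, Mrpl15, the homologue of bacterial L15, had 1010, 952, 1086 and 911 normalized counts in wild-type mice. The mThy1-α-synuclein mice ranged from 964 to 1401 with a median of 1271, and 1 of the 6 fell within the wild-type range. On the log2 scale it differed by 0.32 ± 0.11 (SE, adjusted p 0.0896 in limma). Mrpl44, a ribonuclease III-like protein near the tunnel exit, differed by 0.28 (adjusted p 0.206), Mrps27, a pentatricopeptide repeat protein of the small subunit, by 0.21 (adjusted p 0.336), and Mrpl28 by 0.17 (adjusted p 0.439), all in limma and none past the threshold. Mrpl44 shares 126 exon bases with the gene Wdfy1, and Mrps27 shares 506 with the antisense gene 6430562O15Rik.

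**Figure D2:**
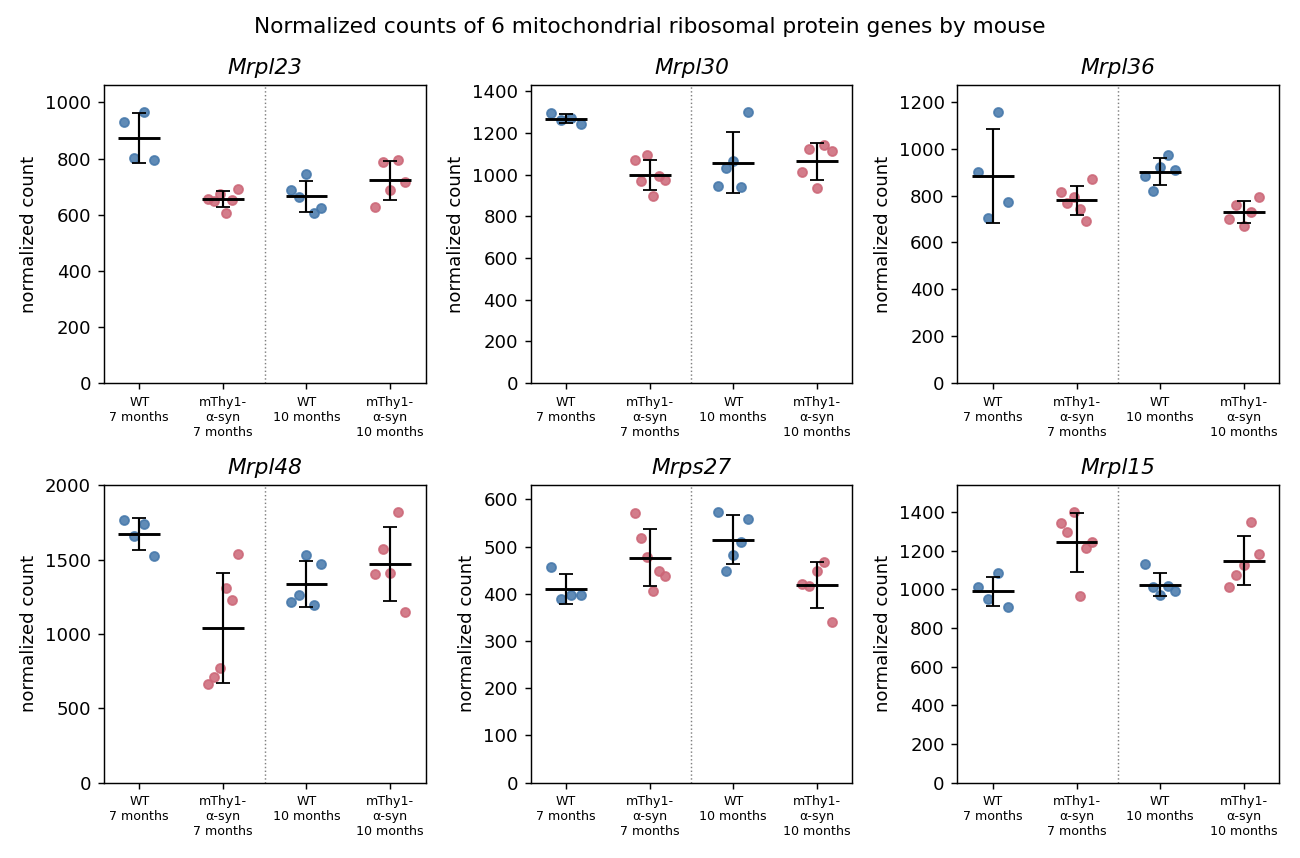
Points are normalized counts of single mice for 6 genes, with the mean (bar) and SD (whiskers) of each group of 4 to 6 mice. The ages were normalized separately, so levels are compared within an age (dotted line between ages). At 7 months Mrpl23 and Mrpl30 separate the genotypes, and at 10 months Mrpl36 does.

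The call at 7 months depended on single wild-type mice. Without wild-type replicate 1 or without wild-type replicate 3, 0 of the 77 genes passed the threshold in limma, with 7 at an unadjusted p under 0.05 in each case. Without wild-type replicate 2 or mThy1-α-synuclein replicate 2, Mrpl23 alone passed. For these and the later fits without a mouse, the share of all genes past the threshold is not given here. The changed counts are therefore not read as particular to the 77 genes. Without wild-type replicate 3 the split became 40 lower and 37 higher, and the median log2 difference became -0.01.

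At 10 months Mrpl36 was the gene past the threshold, again lower in mThy1-α-synuclein mice, beside 7.67% of all 13627 genes tested. Of the 77 genes, 57 were lower and 20 higher, with a median log2 difference of -0.09 against 0.00 over all genes. At an unadjusted p under 0.05 there were 13 of the 77 (16.9%), with 23.5% of all genes. Each of the 13 was lower, beside 1639 of 3209 such genes over all genes. Those 13 of the 77 stand beside 12.0% of all tested genes. Mrpl36 was also the 1 gene whose groups did not overlap, with 7.27% of all genes.

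Mrpl36 is the homologue of the small bacterial protein L36. At 10 months the wild-type mice had 884, 822, 923, 976 and 909 normalized counts and the mThy1-α-synuclein mice 701, 760, 672, 730 and 794. Every wild-type value was above every mThy1-α-synuclein value. The log2 difference was -0.30 ± 0.08 (SE), with an interval from -0.48 to -0.13 and an adjusted p of 0.039 in limma. At 7 months the wild-type mice spread from 706 to 1157 and the log2 difference was -0.16 (adjusted p 0.501 in limma), or -0.26 without wild-type replicate 2 and -0.02 without wild-type replicate 3. The gene lies at chr13:73328513-73332178 and shares 30 exon bases with the antisense gene Ndufs6. Leaving out any 1 of mThy1-α-synuclein replicates 1, 2, 3 and 4 or wild-type replicates 1, 3, 4 and 5 ended the call of Mrpl36, and over the 18 alternatives run its adjusted p lay between 0.0111 and 0.0967.

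Mrpl33, the homologue of bacterial L33, had 1307, 1148, 1166, 964 and 1147 normalized counts in wild-type mice at 10 months and 925, 989, 943, 942 and 845 in mThy1-α-synuclein mice. A single wild-type mouse lay below the highest mThy1-α-synuclein mouse. The log2 difference was -0.30 ± 0.09 (SE, adjusted p 0.0517 in limma) at 10 months and -0.37 ± 0.13 (SE, adjusted p 0.11) at 7 months.

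The other large falls at 10 months did not pass the threshold. Mrpl40, of the central protuberance, differed by -0.33, with wild-type mice at 806, 768, 1546, 903 and 1063 normalized counts, of which replicate 3 stood highest, and without it the difference was -0.16. Mrpl14 differed by -0.32 (adjusted p 0.225), Mrpl47 by -0.31 (0.205) and Mrps25 by -0.31 (0.122), in limma. Mrps25 shares 4590 exon bases with the antisense gene Nr2c2. Mrpl47 shares 1068 with the antisense genes Ndufb5 and Actl6a, and Mrpl14 shares 106 with the antisense gene Tmem63b. The largest rise was that of Mrpl35, the homologue of bacterial L35. Wild-type mice had 348, 630, 400, 302 and 736 normalized counts and mThy1-α-synuclein mice 641, 585, 740, 739 and 471, so the groups overlapped widely. Its log2 difference was 0.46 ± 0.24 (SE, adjusted p 0.272 in limma). Mrpl54 differed by 0.24 (adjusted p 0.397) and Mrps10 by 0.18 (0.397), in limma. Without mThy1-α-synuclein replicate 4 these were 0.12 and 0.11, and without replicate 1 that of Mrpl54 was 0.36. Mrpl15, which was also higher at the younger age, differed by 0.16 ± 0.09 (SE, adjusted p 0.293 in limma). Its difference did not pass the threshold at either age.

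Grouped by role, the 29 large-subunit proteins with a bacterial homologue had medians of -0.10 at 7 months and -0.04 at 10 months. At 7 months 2 of the 29 passed the threshold (Mrpl23 and Mrpl30), beside 4.93% of all tested genes. At 10 months 1 did (Mrpl36), beside 7.67%. The 20 mitochondria-specific large-subunit proteins had medians of -0.02 and -0.10, with none past the threshold. The 16 small-subunit proteins with a bacterial homologue had medians of -0.08 and -0.07, with none past the threshold. Of the 10 mitochondria-specific small-subunit proteins, 6 were lower at 7 months (median -0.05) and 10 at 10 months (median -0.11), with none past the threshold. Of all 77 genes, 52 and 57 were lower. At the shares of all genes given above, a group of 10 to 20 genes may hold none past the threshold. Differences between the groups were not tested. Of the 2 unassigned genes, Mrpl55 differed by -0.06 and -0.20 and Mrps36, which is now known as a part of the 2-oxoglutarate dehydrogenase complex, by -0.04 and -0.04.

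Single differences were set against a bound of 0.5 on the log2 scale, wider than each genotype difference past the threshold at either age. The 95% interval lay within 0.5 on the log2 scale on either side of 0 for 66 of the 77 genes at 7 months and for 62 at 10 months. For the remaining 11 and 15 genes a difference above that size was not excluded by the interval.

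The mice of a group differed in the whole set of genes. Averaged over the 77 genes, the log2 difference from the wild-type mean at 7 months was 0.04, -0.06, 0.10 and -0.08 in the wild-type mice and ranged from -0.14 to -0.04 in the mThy1-α-synuclein mice with a median of -0.05. All 6 mThy1-α-synuclein mice were below the wild-type mean, but they overlapped with 2 wild-type mice. At 10 months the wild-type mice were at 0.04, -0.08, 0.00, -0.10 and 0.14 and the mThy1-α-synuclein mice at -0.23, -0.06, -0.12, 0.10 and -0.14. Replicate 4 was the mThy1-α-synuclein mouse above the wild-type mean, with 22 of the 77 genes below that mean against 49 to 73 in the other 4. Without this mouse 66 of the 77 genes were lower, the median was -0.13, and 2 other genes, Mrps18a and Mrps15, passed the threshold in limma in place of Mrpl36. Without mThy1-α-synuclein replicate 1 the median at 10 months was -0.06, and without wild-type replicate 5 it was -0.05, with 49 of the 77 genes lower in each case.

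**Figure D3:**
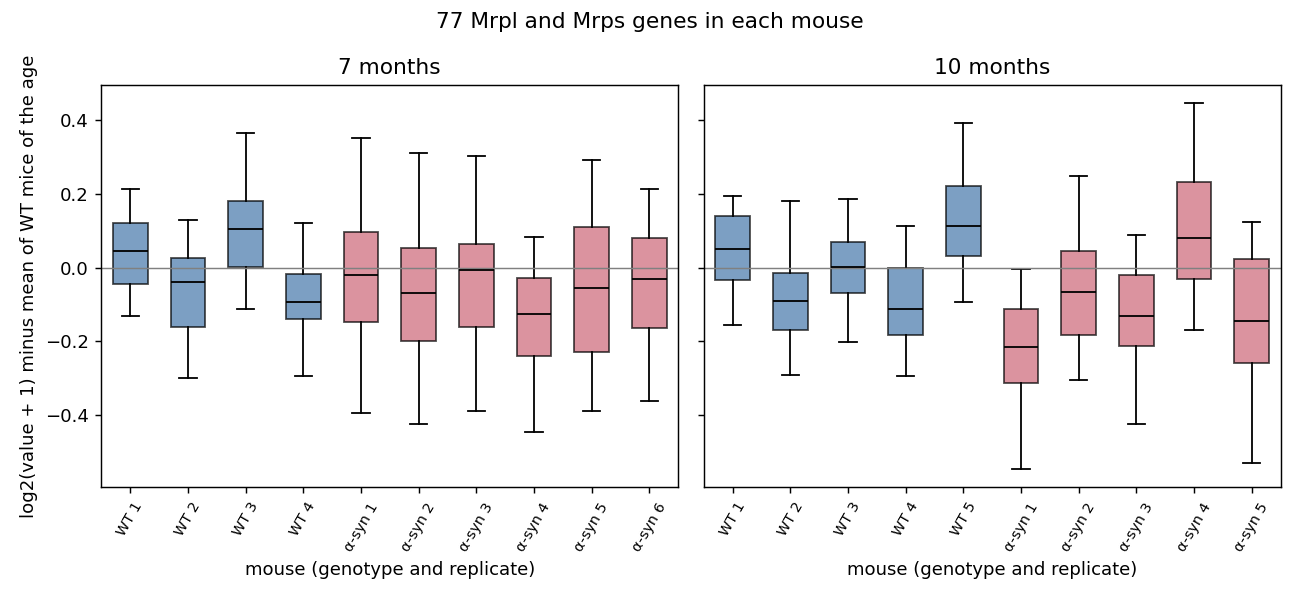
Each box gives the 77 genes in 1 mouse as log2(value + 1) minus the wild-type mean of the age, with the median, the quartiles and whiskers at the 5th and 95th percentiles. At 10 months the boxes of mThy1-α-synuclein replicate 4 and wild-type replicate 5 lie above the others, and that of mThy1-α-synuclein replicate 1 lies lowest.

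Deviations from the group mean were shared among the genes more at 10 months. Across the 10 mice of an age, which share library and depth for all genes, the pairwise correlations among the 77 genes were averaged. Their mean was 0.14 at 7 months (64.8% of pairs positive) and 0.38 at 10 months (88.6% of pairs positive). Over all genes the mean was 0.00 at both ages. The scaling centres the genes of each mouse, which holds that mean near 0. No other set of genes was compared, so the shared deviations are not read as particular to the 77 genes. The median coefficient of variation of the 77 genes was 10.1% in wild-type and 9.93% in mThy1-α-synuclein mice at 7 months, and 11.2% in each at 10 months. Over all tested genes it was 13.1% and 13.4% at 7 months, and 12.9% and 12.2% at 10 months, in the same order.

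The interaction asked whether the genotype difference changed between 7 and 10 months. Mrpl23 passed the threshold, with 6.36% of all 14457 genes, and at an unadjusted p under 0.05 there were 13 of the 77, with 21.9% of all genes. Mrpl23 went from -0.41 at 7 months to 0.12 at 10 months, where wild-type mice had 688, 664, 746, 607 and 622 and mThy1-α-synuclein mice 629, 789, 687, 794 and 716 normalized counts. The change was 0.53 ± 0.13 (SE), with an interval from 0.27 to 0.79 and an adjusted p of 0.0145 in limma. Mrpl48 changed by 0.89 (adjusted p 0.0613), Mrps27 by -0.51 (0.0556) and Mrpl30 by 0.36 (0.0821), in limma and not past the threshold. Leaving out 10-month mThy1-α-synuclein replicate 4 gave 5 genes past the threshold (Mrpl23, Mrps27, Mrpl39, Mrpl28 and Mrps15). There were 3 without 7-month mThy1-α-synuclein replicate 4 or 10-month wild-type replicate 5, and 2 without 7-month mThy1-α-synuclein replicate 6, 10-month mThy1-α-synuclein replicate 5 or 10-month wild-type replicate 2. Mrpl23 passed in each of these fits. The interaction interval lay within 0.5 of 0 for 41 of the 77 genes.

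Across ages, 37 of the 77 genes were lower in mThy1-α-synuclein mice at both 7 and 10 months, 5 were higher at both and 35 differed in direction. Over all genes 25.6% were lower at both. Since 52 of the 77 were lower at 7 months and 57 at 10 months, the 37 do not by themselves show a link between ages. The genotype differences of the 77 genes at the 2 ages had a Pearson r of -0.25 and a Spearman rho of -0.24, while over all genes they were 0.20 and 0.10. These correlations are across genes, which are not independent. No gene of the 77 had groups without overlap at both ages, with 0.756% of all genes.

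**Figure D4:**
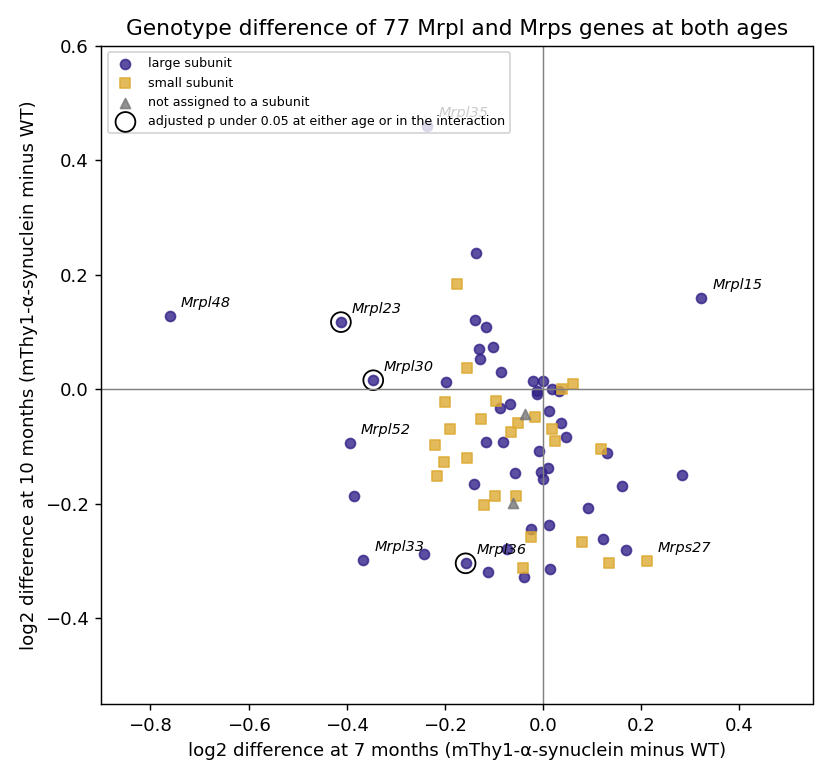
Each point is 1 of the 77 genes, placed by its log2 difference between genotypes at 7 months (horizontal) and 10 months (vertical), with rings around the 3 genes past the threshold. Mrpl48 lies farthest left at -0.76, Mrpl23 at -0.41 and Mrpl30 at -0.35 lie on the left beside Mrpl52, Mrpl34 and Mrpl33, and Mrpl35 lies at the top at 0.46.

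Between ages, the comparison was made on counts scaled over all 20 mice. The mice of each age were processed together, so age cannot be told apart from processing. In wild-type mice 4 of the 77 genes were higher at 10 months, with 9.97% of all 14452 genes, and 16 had an unadjusted p under 0.05, with 25.1% of all genes. Mrps15, a small-subunit protein that binds ribosomal RNA, was at 1160 ± 82.7 (SD, n = 4) and 1613 ± 145 (SD, n = 5), a log2 difference of 0.47 ± 0.11 (SE, adjusted p 0.00934 in limma). Mrps27 was at 396 ± 30.2 and 533 ± 52.5, Mrpl28 at 374 ± 29.8 and 521 ± 68.8 and Mrpl39 at 1169 ± 27.7 and 1442 ± 93.9 (SD, same n). Of the 77 genes 58 were higher and 19 lower, with a median of 0.11, but with the values as deposited, which lower the median of all genes to -0.10, 37 were lower and 1 of 5 called genes was higher. Without 7-month replicate 2 or 10-month replicate 5, 2 genes passed the threshold.

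In mThy1-α-synuclein mice 0 of the 77 genes passed the threshold between ages in limma and 0 in edgeR, with 0.906% of all genes, and 7 had an unadjusted p under 0.05, with 12.7% of all genes. At 10 months 54 of the 77 were higher, with a median of 0.07, and with the values as deposited 47 were lower. The largest difference was 0.67 for Mrpl48 (adjusted p 0.104 in limma). Without 7-month replicate 6, 1 gene (Mrpl48) passed the threshold.

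Other genes of mitochondrial translation were taken from 5 lists (other mitoribosomal symbols, assembly factors, translation factors, tRNA synthetases, and genes of mitochondrial DNA expression and biogenesis), with 77 genes tested. At 10 months 2 of these passed the threshold, beside 7.67% of all genes. Another 10 of 77 count, at an unadjusted p under 0.05 and including these 2, stood beside 23.5% of all genes. At 7 months 0 passed in limma, edgeR and DESeq2, beside 4.93% of all genes. An unadjusted p under 0.05 was found for 6 of these 77, with 21.3% of all genes. In the interaction 0 passed in limma and edgeR and 1 (Tars2) in DESeq2, beside 6.36% of all genes. There 16 of these 77 had an unadjusted p under 0.05, with 21.9% of all genes. Ngrn, needed for the large-subunit RNA, was higher in mThy1-α-synuclein mice at 10 months. It was at 602 ± 48.5 (SD, n = 5) normalized counts in wild-type mice and 776 ± 54.4 (SD, n = 5) in mThy1-α-synuclein mice. The log2 difference was 0.37 ± 0.09 (SE, adjusted p 0.0261 in limma). Guf1, a GTPase that acts on the mitochondrial ribosome, was at 743 ± 87.9 in wild-type and 934 ± 69.1 in mThy1-α-synuclein mice (SD, n = 5 each). This was a difference of 0.33 ± 0.10 (SE, adjusted p 0.0473 in limma). Of 18 alternatives, 6 ended the call of Ngrn (adjusted p up to 0.0651) and 11 that of Guf1 (up to 0.110), most of them by leaving out a single mouse. At 7 and 10 months the higher genes numbered 16 and 8 of 22 assembly factors, 13 and 7 of 16 translation factors, 12 and 11 of 15 genes of mitochondrial DNA expression and biogenesis, and 3 and 0 of 5 other mitoribosomal symbols. The tRNA synthetases were higher for 16 of 19 genes at 7 months (median 0.16) and lower for 13 of 19 at 10 months (median -0.06), with none past the threshold.

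Cytoplasmic ribosomal proteins and nuclear subunits of oxidative phosphorylation (OXPHOS) give the setting. At 7 months 70 of 84 cytoplasmic ribosomal protein genes passed the threshold, 69 of them lower, with a median log2 difference of -0.48, beside 2 of 77 and -0.06 for the mitochondrial ribosome. OXPHOS subunits had 7 of 73 past the threshold, all lower, and a median of -0.21. At 10 months the medians were 0.07 for cytoplasmic ribosomal proteins, -0.05 for OXPHOS subunits and -0.09 for mitochondrial ribosomal proteins, with 1, 0 and 1 genes past the threshold. The difference between these groups of genes was not tested.

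**Figure D5:**
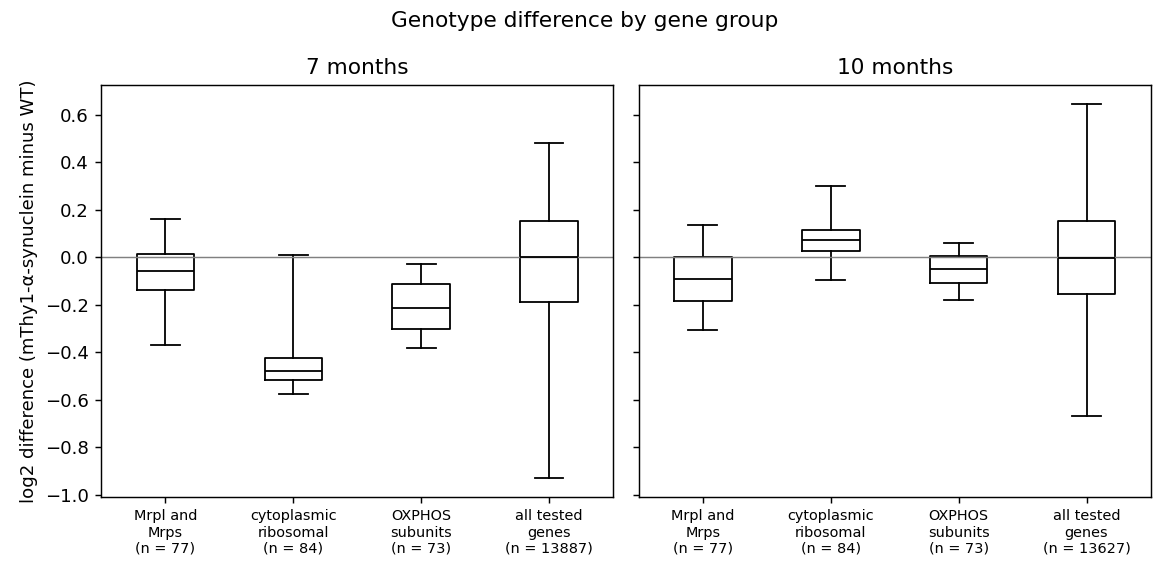
Boxes give the log2 difference between genotypes over the genes of each group at 7 and 10 months, with the median, the quartiles and whiskers at the 5th and 95th percentiles. At 7 months the cytoplasmic ribosomal proteins lie lowest at a median of -0.48, and the Mrpl and Mrps genes have a median of -0.06.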

How the data were processed

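Microglial RNA of 20 mice was analysed, and methylation was not analysed here. The authors trimmed reads with Trim Galore 0.6.7, mapped them with HISAT2 2.2.1 to mm10 and counted them per gene with featureCounts; annotation release, strand and multimapping settings are not given in the sources used here. The deposited signal values are counts per gene over a DESeq2 (1.44.0) size factor, which the authors computed within each age. Whole reads were recovered for 100% of values up to 1000 reads at a tolerance of 0.02.

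limma 3.58.1 (trend, robust; R 4.3.3) was fitted to log2(value + 1) over every gene with at least 10 normalized counts in 4 mice (7 months, interaction, age) or 5 mice (10 months), with Benjamini-Hochberg adjustment and a threshold of 0.05. Fold changes are on the log2(value + 1) scale. Age contrasts used reads scaled over all 20 mice. edgeR 4.0.16 and DESeq2 1.42.0 on recovered reads, other scalings, pseudocounts, filters, a replicate block and leaving out each mouse were alternatives. Scripts were tested on simulated data. Each mouse is a separate animal.

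The genes and lists were chosen with earlier results of these data known. Named genes are those past the threshold, the 4 largest rises and falls at each age, those without overlap at both ages, the 4 highest and 4 lowest levels per kb, and related genes past the threshold. Lists of cytoplasmic ribosomal proteins and OXPHOS subunits were formed by symbol. Gene positions are from GENCODE M21 (mm10), and promoters from RefSeq.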

Additional observations from a re-analysis of the deposited data

Results flagged for a closer look

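Among the named genes, 3 of 68 groups of 4 to 6 mice held a value far from the others by Dixon's criterion, and chance gives about 1 in 20. Mrps27 was at 456.6 normalized counts in wild-type replicate 1 at 7 months, where the nearest other mouse was at 396.9. Mrps10 was at 427.4 in wild-type replicate 4 at 10 months, where the nearest was at 487.2. Mrpl35 was at 482.5 in wild-type replicate 2 at 7 months, where the nearest was at 681.1.

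The genotype difference of Mrpl23 changed between 7 and 10 months by 0.53 on the log2 scale (interaction, adjusted p 0.0145 in limma).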

How the results depend on the processing

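Of the 77 genes, the number past the threshold at 7 months was 2, and 4 with DESeq2 (Mrpl30, Mrpl52, Mrpl48 and Mrpl23); leaving out each mouse gave 0 to 3. At 10 months it was 1, and 0 without the filter on low values, 2 with DESeq2, 2 with edgeR and 0 with the replicate block; leaving out each mouse gave 0 to 2. In the interaction it was 1, and 3 with DESeq2, with 1 to 5 when each mouse was left out. Between ages it was 4 in wild-type mice, with 0 under the replicate block and 2 to 5 when each mouse was left out, and 0 in mThy1-α-synuclein mice, with 1 under the replicate block and 0 to 1 when each mouse was left out. The share of all genes past the threshold in each alternative fit is not given here. A changed count is therefore not read as particular to the 77 genes. The cause of these changes was not tested. Mice of equal replicate number showed no clear pairing, with correlations of their deviations of -0.13 to 0.10. So few correlations cannot exclude a pairing. With the replicate block the genes past the threshold were Mrpl52 and Mrpl48 at 7 months and Mrpl48 in the interaction. Small differences turned sign when a mouse was left out. The log2 range over mice left out was -0.0232 to 0.0932 for Mrpl30 at 10 months, and at 7 months it was -0.295 to 0.0880 for Mrpl54, -0.110 to 0.0121 for Mrpl40 and -0.0340 to 0.0595 for Mrpl47.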
